A study of Homo sapiens with 10 samples.

Results

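The genes described here are HRAS and NRAS (RAS GTPases), ARAF and BRAF (RAF kinases), MAP2K1 and MAP2K2 (the MEK kinases) and MAPK3 (an ERK kinase), 7 of the 18686 gene symbols in the table, the non-targeting controls aside. They were chosen by symbol as members of the RAS to ERK cascade, with earlier results of these data known. The table lists 3 sgRNAs for each, 21 in all. Of these, 20 passed the filter on low counts, which asks for 20 counts on average per library. The sgRNA that did not was directed against MAP2K2 (HGLibB_28100), with at most 23 counts in any library, so MAP2K2 rests on 2 sgRNAs.

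RAS proteins are switches that bind GTP below growth factor receptors and bring RAF kinases to the membrane. RAF phosphorylates MEK, MEK phosphorylates ERK, and ERK acts on transcription factors, among them proteins of the MYC family. Each tier holds closely related proteins with overlapping functions, and 22Rv1, a human prostate cancer cell line, carries a reported BRAF mutation.

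The libraries are amplicons of the integrated sgRNA cassette from genomic DNA of a pooled CRISPR knockout screen, in which an sgRNA against a gene needed for growth becomes rarer with each passage and one against a gene that restrains growth becomes more common. Parental 22Rv1 cells and 22Rv1 cells overexpressing NMYC (the MYCN protein) were compared. Both were infected with the lentiviral library at a multiplicity of 0.3 and selected with puromycin, and each arm has a T0 library and, at T6 and again at T12, libraries of 2 replicate cultures. The labels do not give the unit of T6 and T12; they name a culture period of 12 generations. The design text asks for losses that harm cells when MYCN is overexpressed. The labels do not say how NMYC was expressed or whether the line is a clone. The replicate cultures of an arm were plated after selection, so p-values measure spread that arose after that plating. They do not measure spread between infections or selections, also where the arms are compared. T0 is unreplicated in each arm.

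Libraries held 8783512 to 18398571 counts, and sgRNAs against the 7 genes took 0.0351% to 0.0578% of them. Levels are given as CPM, read counts scaled to a common library total, on TMM-adjusted library sizes, TMM being a scaling that trims extreme sgRNAs, and a gene's level is the sum over its kept sgRNAs. The log2 value given for a gene is the fold change of these summed counts on the log2 scale, less that of the median gene. An sgRNA's log2 value is likewise given relative to the median sgRNA, which itself moved by 0.57 in parental and 0.24 in NMYC cells from T0 to T12. The median gene moved by -0.1 and 0.03. All p-values and standard errors belong to the fold change before the median is subtracted. Reads of PCR products are not independent molecules, so depth covers counting error alone.

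Replicate cultures differed widely for these sgRNAs. At T12, 12 of the 20 differed by over 4-fold between the parental replicates (60% against 40.8% of all kept sgRNAs) and 7 of the 20 between the NMYC replicates (35% against 37%). At T6 the counts were 8 and 3 of 20 (all sgRNAs: 32.6% and 20.1%). The T0 libraries of the arms, which precede the culture period, also differed by over 4-fold for 8 of the 20 (all sgRNAs: 42.6%). Non-targeting sgRNAs, which cut no gene, did so at 31.3%, 40.4%, 19.9% and 36.4% between the parental T6, parental T12, NMYC T6 and NMYC T12 replicates.

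**Figure D1:**
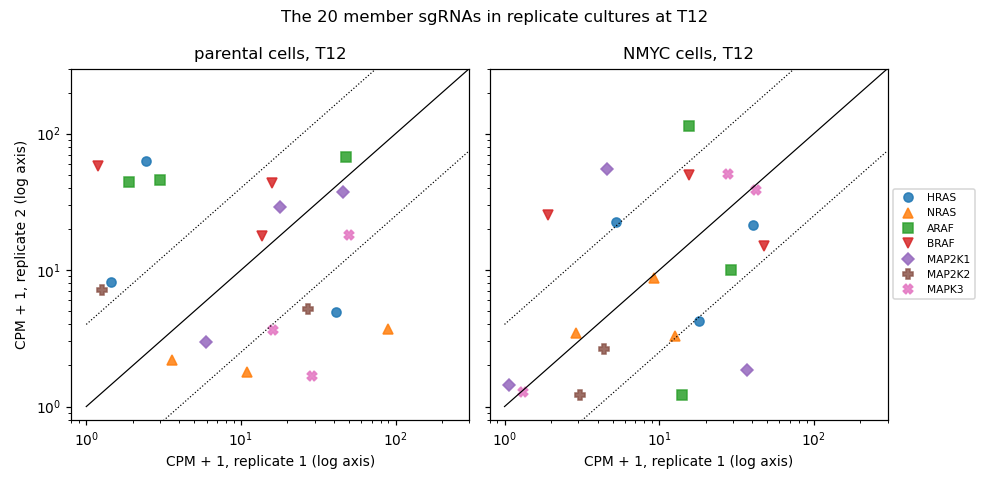
CPM + 1 of the 20 kept sgRNAs against the 7 genes in replicate 1 (x) and replicate 2 (y) of the T12 cultures, both axes log, with the solid line at equality and dotted lines at 4-fold. In parental cells 12 of the 20 points differ by over 4-fold and in NMYC cells 7, HGLibB_04751 against BRAF lying farthest from the line in parental cells, at 0.194 and 57.3 CPM.

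The question for each arm was which knockouts were lost or gained from T0 to T12. None of the 7 genes passed the test in either arm. The gene with the lowest value was MAP2K2 in NMYC cells, at a log2 value of -5.43, and NRAS and BRAF had the lowest values in parental cells, at -1.12 and -1.44. ARAF had the highest value in parental cells, 1.69, and MAPK3 in NMYC cells, 1.09.

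By robust rank aggregation of the edgeR sgRNA p-values, a gene score of the kind MAGeCK uses, 0 of the 7 genes were lower and 0 higher past an adjusted p of 0.05 in parental cells (all genes: 0% and 0%), with 0 of 7 at an unadjusted p under 0.05 in each direction (all genes: 5.12% lower and 4.85% higher). In NMYC cells 0 of 7 passed in each direction (all genes: 0% and 0%), and 1 of 7, MAP2K2, was on the lower side at an unadjusted p under 0.05 (all genes: 5.03%) and 0 on the higher side (5.08%). The edgeR test on summed counts called 0 of the 7 in parental cells (all genes: 0%; unadjusted 0 of 7 against 13%) and 0 in NMYC cells (all genes: 0.0055%; unadjusted 1 of 7 against 7.98%). For single sgRNAs edgeR gave 0 of 20 past 0.05 in parental cells (all sgRNAs: 0.0226%) and 0 of 20 in NMYC cells (0.0132%). At an unadjusted p under 0.05 there were 2 of 20 in parental cells (all sgRNAs: 11.2%) and 3 of 20 in NMYC cells (6.79%). With DESeq2 in place of edgeR, 2 of the 20 passed in parental cells (all sgRNAs: 11.6%) and 0 in NMYC cells (3%). Rank aggregation on DESeq2 p-values called 0 of the 7 genes in each arm (all genes: 0%).

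**Figure D2:**
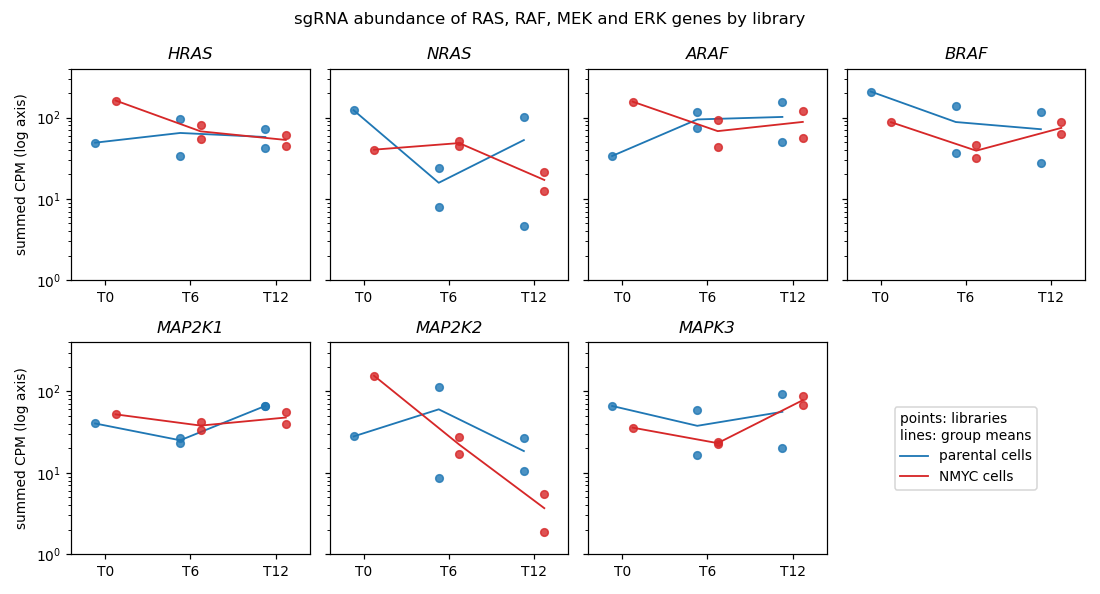
Summed CPM (log axis) of the kept sgRNAs of each gene at T0, T6 and T12 in parental (blue) and NMYC (red) cells, with points for libraries and lines through group means. MAP2K2 in NMYC cells runs from 156 CPM at T0 to 5.48 and 1.87 at T12, while the replicate points of NRAS and BRAF in parental cells lie far apart at T12.

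HRAS, a RAS GTPase, stood at 49.1 CPM in the parental T0 library, 33.3 and 96.0 at T6 and 42.1 and 73.2 at T12. The parental T0 value lay between the T6 libraries and between the T12 libraries. In NMYC cells HRAS stood at 162 CPM at T0, 81.0 and 54.3 at T6, then 60.8 and 45.3 at T12, so that the 4 later libraries were all below T0. The log2 value from T0 to T12 was 0.33 in parental cells and -1.64 in NMYC cells, where the edgeR test on summed counts gave an adjusted p of 0.698 and rank aggregation one of 0.982. The high NMYC T0 level came mostly from 1 sgRNA, HGLibB_22043, at 122 CPM there and 17.2 and 3.24 CPM at T12. This sgRNA was also lower at T12 in parental cells, at 27.5 CPM at T0 and 0.452 and 7.19 at T12, with a log2 value of -3.41 there (edgeR adjusted p = 0.473) and -3.81 in NMYC cells (adjusted p = 0.657), in neither case past the threshold. The other HRAS sgRNAs, HGLibB_22044 and HGLibB_22045, had values of -0.21 and 0.10 in NMYC cells.

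NRAS, the other RAS GTPase described, stood at 123 CPM in the parental T0 library, 23.7 and 7.87 at T6 and 101 and 4.71 at T12. The later parental libraries were all below T0, but the T12 replicates lay on both sides of the T6 libraries. In NMYC cells it stood at 40.3 CPM at T0, 52.2 and 44.9 at T6, then 21.7 and 12.5 at T12, with both T12 libraries below every earlier one. The log2 values from T0 to T12 were -1.12 in parental cells (edgeR on summed counts, adjusted p = 0.699; rank aggregation, 0.987) and -1.27 in NMYC cells (0.822 and 0.999). Without parental T12 replicate 1 the parental value was -4.45, and without replicate 2 it was -0.03.

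NRAS was the gene whose sgRNAs resembled each other most among the 7. All 3 lay below the median sgRNA in both arms, at -1.79, -1.15 and -5.03 in parental cells and -0.86, -1.90 and -1.75 in NMYC cells. Of the 7 genes 2 had all their sgRNAs on the same side of the median sgRNA in parental cells, NRAS and ARAF, and 2 in NMYC cells, NRAS and MAP2K2. Among all genes tested the shares were 29.0% and 29.1%. MAP2K2 has only 2 kept sgRNAs, which fall on the same side more easily than 3. The sgRNA at -5.03, HGLibB_32606, stood at 561 counts in the parental T0 library, 107 and 51 in the T6 libraries and 40 and 19 in those of T12. Its counts in NMYC cells were 293 at T0 and 126 and 107 at T12. By edgeR its adjusted p was 0.451. DESeq2 called it and 1 other of the 20 in parental cells, where it called 11.6% of all sgRNAs. HGLibB_32605 differed most between replicates, with 1366 counts in one parental T12 culture and 44 in the other, from 916 at T0.

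ARAF, an X-linked RAF kinase gene, stood at 33.7 CPM in the parental T0 library, 73.6 and 116 at T6 and 49.5 and 154 at T12. All 4 later parental libraries were above T0. In NMYC cells it stood at 157 CPM at T0, 43.0 and 93.2 at T6, then 55.8 and 121 at T12, so that the later libraries were all below T0. The log2 values were 1.69 in parental cells (edgeR on summed counts, adjusted p = 0.514) and -0.86 in NMYC cells (0.846). At T12 itself the arms overlapped, at 102 ± 73.8 CPM (SD, n = 2) in parental and 88.6 ± 46.4 in NMYC cells, while the T0 libraries differed from 33.7 to 157 CPM. With the mean of both T0 libraries as the baseline, added after the data were seen, the values were 0.42 and 0.27. The ARAF sgRNAs did not share a direction in NMYC cells. HGLibB_02619 had 840 counts at T0, 106 and 83 at T6, then 201 and 3 at T12 (log2 value -3.52; edgeR unadjusted p = 0.0408, adjusted p = 0.711), and HGLibB_02621 had 840 at T0, 134 and 299 at T6, then 432 and 125 at T12 (log2 value -2.04; adjusted p = 0.859). HGLibB_02620 had a value of 0.99.

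BRAF, the RAF kinase gene with a reported mutation in this line, stood at 209 CPM in the parental T0 library, 36.2 and 140 at T6 and 27.7 and 116 at T12. All later parental libraries were lower than T0, and the replicates differed by several fold at both times. In NMYC cells BRAF stood at 87.6 CPM at T0, 46.1 and 32.2 at T6, then 62.1 and 87.1 at T12, where replicate 2 came close to the level of T0. The log2 value was -1.44 in parental cells (edgeR on summed counts, adjusted p = 0.496; rank aggregation, 0.987) and -0.26 in NMYC cells (0.965 and 1). Without parental T12 replicate 1 the parental value was -0.59 and without replicate 2 it was -2.67.

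The 3 BRAF sgRNAs did not move together. In parental cells HGLibB_04749 stood at 1790 counts at T0, 386 and 269 at T6, then 195 and 273 at T12, a log2 value of -3.74 (edgeR unadjusted p = 0.0438, adjusted p = 0.438). HGLibB_04750 stood at 971 counts at T0, 238 and 217 at T6, then 231 and 681 at T12, a value of -1.91. Both were lower in every later parental library than at T0 by CPM. HGLibB_04751 started at 49 counts and then had 10 and 490 at T6 and 3 and 924 at T12, and its value was 2.41. In NMYC cells the order was another one: HGLibB_04749 had -0.31, HGLibB_04750 had 2.45 and HGLibB_04751 had -2.24. The difference between the arms was thus 3.56, 4.49 and -4.53 for these sgRNAs, with edgeR adjusted p-values of 0.646, 0.596 and 0.555.

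MAP2K1, which encodes MEK1, had replicate sums that lay close together. It stood at 40.4 CPM in the parental T0 library, 27.0 and 23.2 at T6 and 66.8 and 66.1 at T12. In NMYC cells it stood at 52.3 CPM at T0, 33.6 and 42.5 at T6, then 39.8 and 55.8 at T12. The parental T12 libraries were above all other parental ones, and the NMYC T12 libraries lay on both sides of T0. The log2 values were 0.82 in parental cells (edgeR on summed counts, adjusted p = 0.832; rank aggregation, 0.983 on the higher side) and -0.16 in NMYC cells (adjusted p = 0.986).

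Behind these sums the sgRNAs went different ways. HGLibB_28097 went from 10 counts at parental T0 to 261 and 449 at T12, and HGLibB_28098 from 528 to 77 and 32. Over the 10 libraries, which share the scaling, the levels of these sgRNAs had a Pearson r of -0.93 on log2(CPM + 1), the most negative of the 19 pairs of sgRNAs within a gene. HGLibB_28099 had only 4 counts in the parental T0 library, then 44 and 11 at T6 and 698 and 585 at T12. The same sgRNA had 7 counts at NMYC T0, 116 and 246 at T6, then 1 and 6 at T12. Its log2 value from T0 to T12 was 6.48 in parental cells (edgeR unadjusted p = 0.0459, adjusted p = 0.439) and -1.35 in NMYC cells (adjusted p = 0.935), each from a T0 library with under 10 counts, so the fold is imprecise.

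MAP2K2, which encodes MEK2, stood at 156 CPM in the NMYC T0 library, 17.1 and 27.4 at T6 and 5.48 and 1.87 at T12. The T6 libraries were below T0 and the T12 libraries below both T6 libraries, without overlap. Of all genes, 48.4% were lower in both NMYC T6 libraries than at T0, and 12.2% lower at T12 than at T6. In parental cells MAP2K2 stood at 28.0 CPM at T0, 8.55 and 112 at T6, then 26.6 and 10.4 at T12, with no such order. The log2 value from T0 to T12 was -5.43 with a standard error of 1.42 in NMYC cells, lower than in all but 0.126% of the genes tested, and -0.50 with a standard error of 1.34 in parental cells. That rank sets a sum over 2 sgRNAs against genes of which most, 15248 of 18197, have 3. In NMYC cells the edgeR test on summed counts gave an unadjusted p of 0.000361 and an adjusted p of 0.182, and rank aggregation an unadjusted p of 0.0303 and an adjusted p of 0.962. Over the alternatives run, the adjusted p on summed counts ran from 0.0152 to 0.693, the lowest, from DESeq2, being the only one under 0.05. DESeq2 called 1.25% of all genes on summed counts in this contrast, 228 of 18197. That of rank aggregation ran from 0.863 to 0.992.

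Most of the MAP2K2 signal at NMYC T0 came from 1 sgRNA. HGLibB_28102 had 1909 counts there, 11 and 261 at T6 and 52 and 23 at T12 (log2 value -6.11; edgeR unadjusted p = 0.00542, adjusted p = 0.446). When only the NMYC libraries were fitted it was the 1 of the 20 sgRNAs that passed 0.05, where 289 sgRNAs passed in all (0.545%). In parental cells it had 337 counts at T0, 67 and 12 at T6, then 4 and 99 at T12, a value of -3.53 (adjusted p = 0.515). HGLibB_28101 had 100 counts at NMYC T0, 323 and 83 at T6, then 32 and 3 at T12 (log2 value -2.98, adjusted p = 0.821), and in parental cells 39 at T0 and 408 and 68 at T12, a value of 1.82. Both sgRNAs were thus lower at T12 than at T0 in both NMYC libraries, and in parental cells they lay on opposite sides. Against the mean of both T0 libraries the NMYC value of the gene was -4.18.

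**Figure D3:**
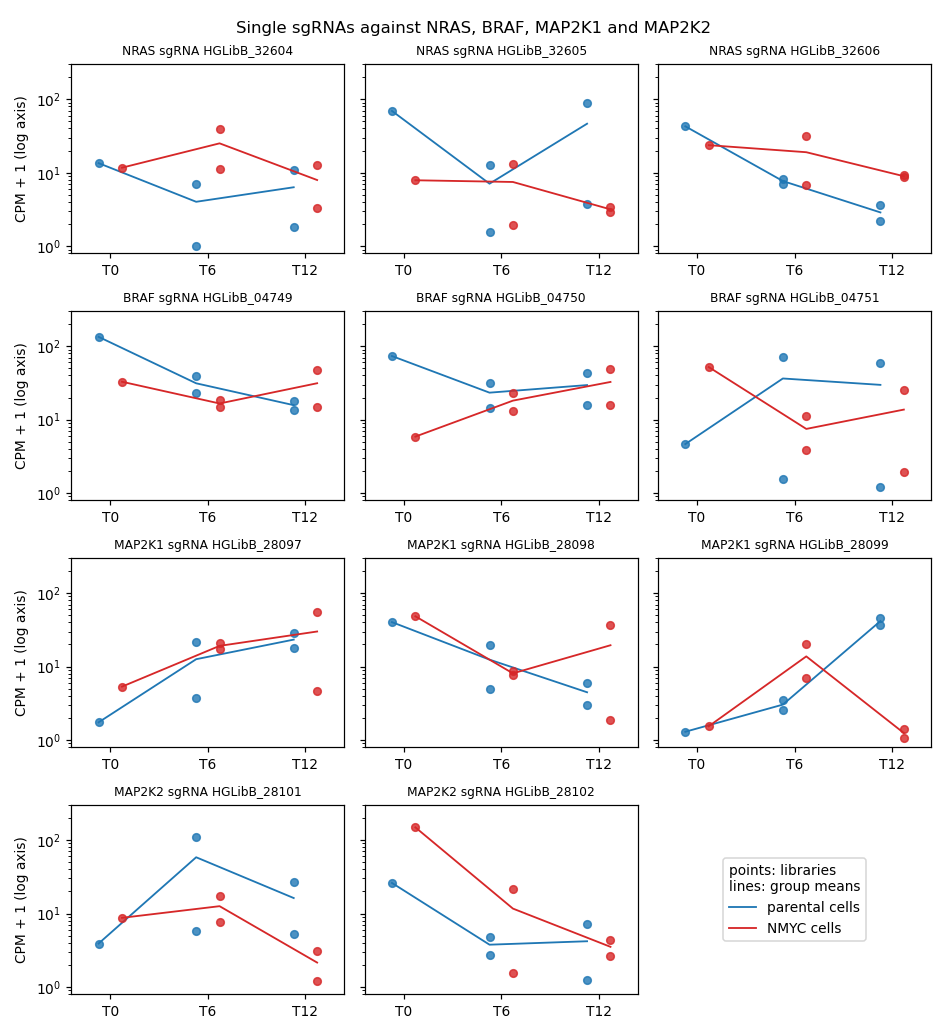
CPM + 1 (log axis) of each kept sgRNA against NRAS, BRAF, MAP2K1 and MAP2K2 at T0, T6 and T12 in parental (blue) and NMYC (red) cells, with points for libraries and lines through group means. HGLibB_28102 against MAP2K2 runs from 148 CPM at NMYC T0 to 3.39 and 1.66 at T12, and HGLibB_28099 against MAP2K1 is high at T12 in parental cells and low in NMYC cells.

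MAPK3, which encodes ERK1, stood at 66.3 CPM in the parental T0 library, 59.1 and 16.5 at T6 and 92.1 and 20.3 at T12. In both pairs of parental replicates, replicate 1 was well above replicate 2. In NMYC cells MAPK3 stood at 35.9 CPM at T0, 22.4 and 23.9 at T6, then 68.7 and 87.6 at T12, so that both T12 libraries were above every earlier one. The log2 value was -0.14 in parental cells (edgeR on summed counts, adjusted p = 0.948) and 1.09 in NMYC cells (0.844). The NMYC value followed HGLibB_28230, which had 45 counts at T0 and 637 and 519 at T12 (log2 value 3.26, adjusted p = 0.81). HGLibB_28231 had 53 counts at NMYC T0 and 5 and 4 at T12, a value of -3.94.

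By library rather than by test, 8 of the 20 sgRNAs were lower in both parental T12 libraries than at T0 (all sgRNAs: 35.1%) and 6 were higher (33.7%). In NMYC cells 11 were lower (36.8%) and 2 higher (28.7%). For the summed levels, 3 of the 7 genes were lower in parental cells (all genes: 41.8%) and 2 higher (31.3%), and in NMYC cells 5 were lower (37.8%) and 1 higher (31%). The NMYC T0 library had the largest share of counts in these genes, 0.0578%, and this library is the baseline of all these NMYC counts. Its part in them was not tested. By log2 value, 6 of the 7 genes lay below the median gene in NMYC cells, with a median of -0.86, and 4 of the 7 in parental cells, with a median of -0.14.

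**Figure D4:**
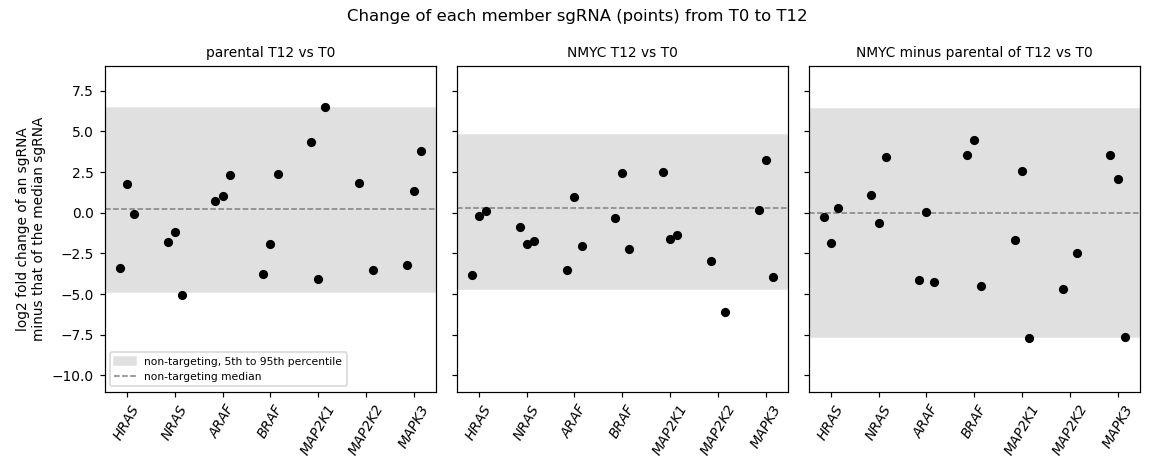
Log2 fold change of each kept sgRNA against the 7 genes (points), minus that of the median sgRNA, from T0 to T12 in parental cells, in NMYC cells and in the difference of the arms. The grey band spans the 5th to 95th percentile of 934 non-targeting sgRNAs and holds 18, 19 and 19 of the 20 points.

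The non-targeting sgRNAs gave the background of these values. Their 5th and 95th percentiles from T0 to T12 were -4.84 and 6.42 in parental cells and -4.68 and 4.78 in NMYC cells, and 0 of the 934 passed edgeR's threshold in each arm, with 105 and 50 at an unadjusted p under 0.05. By construction such a range leaves out 5% of the non-targeting sgRNAs at each end. Of the 20 sgRNAs 18 lay inside it in parental cells, a share like that of the non-targeting sgRNAs. The exceptions were HGLibB_32606 against NRAS, with 4.71% of the non-targeting sgRNAs lower, and HGLibB_28099 against MAP2K1, with 95.4% lower. In NMYC cells 19 lay inside, the exception being HGLibB_28102 against MAP2K2 with 2.25% lower.

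The difference NMYC minus parental of the change from T0 to T12 addresses synthetic dosage lethality. MAP2K2 had the lowest value, -4.81 with a standard error of 2.07 (edgeR on summed counts, unadjusted p = 0.0243, adjusted p = 0.382; rank aggregation, adjusted p = 0.992). It was followed by ARAF at -2.43 (adjusted p = 0.527), HRAS at -1.85 (0.675), MAP2K1 at -0.86 (0.888) and NRAS at -0.03 (0.998). BRAF and MAPK3 lay on the other side, at 1.29 (0.772) and 1.35 (0.806). For ARAF the unreplicated T0 libraries stood at 33.7 CPM in parental and 157 in NMYC cells, and the T12 means at 102 and 88.6. For HRAS they stood at 49.1 and 162 CPM at T0, with T12 means of 57.7 and 53. The part of the T0 libraries in these differences was not tested. Rank aggregation called 0 of the 7 lower and 0 higher (all genes: 0% and 0%), with 0 at an unadjusted p under 0.05 in each direction (4.78% and 4.85%). The test on summed counts called 0 (all genes: 0%; unadjusted 1 of 7 against 11.3%). Of the sgRNAs edgeR called 0 of 20 (all sgRNAs: 0%; unadjusted 1 of 20 against 9.95%) and DESeq2 1 (6.78%), HGLibB_28099 against MAP2K1. Its value was -7.71, from T0 libraries with 4 counts in parental and 7 in NMYC cells. The other MAP2K1 sgRNAs were at -1.70 and 2.59. The NRAS value was 3.25 without parental T12 replicate 1 and -1.17 without replicate 2. Without the same libraries BRAF was at 0.41 and 2.47, and MAPK3 at 2.62 and 0.43.

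A direct comparison of the arms at T12 does not use the T0 libraries. It shares its T12 libraries with the difference above and takes no account of where the arms started. At T0 MAP2K2 stood at 28.0 CPM in parental and 156 in NMYC cells. MAP2K2 was again lowest, at a log2 value of -2.25, with 3.68 ± 2.55 CPM (SD, n = 2) in NMYC and 18.5 ± 11.5 in parental cells (edgeR on summed counts, unadjusted p = 0.0529, adjusted p = 0.641). NRAS had -1.55 (17.1 ± 6.57 against 52.6 ± 67.8 CPM, adjusted p = 0.772), a value that was 1.80 without parental T12 replicate 1, and MAPK3 0.55 (78.2 ± 13.3 against 56.2 ± 50.8 CPM, adjusted p = 0.96), which was -0.28 without parental T12 replicate 2 and 1.88 without replicate 1. The other 4 genes lay between -0.40 and 0.12, with HRAS at -0.05 and ARAF at -0.13. Both NMYC libraries were below both parental ones for 2 of the 7 genes, MAP2K1 and MAP2K2 (all genes: 19%), and above for 0 (14.8%). The lowest sgRNA was HGLibB_28099 against MAP2K1, at -7.24 with 0.428% of the non-targeting sgRNAs lower (edgeR unadjusted p = 0.00471, adjusted p = 0.285). It had 1 and 6 counts at NMYC T12, and the other MAP2K1 sgRNAs were at 0.45 and 2.48. Of the 20 sgRNAs 0 passed by edgeR (all sgRNAs: 0.00189%), 3 had an unadjusted p under 0.05 (11%), and DESeq2 called 1, HGLibB_28099 (all sgRNAs: 8.38%).

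At T6 the 7 genes ranged from -1.22 (MAP2K2) to 1.83 (NRAS) between the arms, and 0 passed by rank aggregation in each direction (all genes: 0% and 0%; unadjusted 0 lower and 0 higher against 4.97% and 5.11%). The MAP2K2 value was 1.30 without parental T6 replicate 2 and -2.06 without replicate 1. NRAS stood at 48.5 ± 5.20 CPM (SD, n = 2) in NMYC and 15.8 ± 11.2 in parental cells at that time, without overlap. The means lay in the opposite order at T12, where the replicates of the arms overlapped. MAP2K1 was the other gene with both NMYC libraries above both parental ones at T6, which gives 2 of 7 (all genes: 15%), against 0 below (18.7%). HRAS differed little, with 67.6 ± 18.9 CPM in NMYC and 64.7 ± 44.3 in parental cells.

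From T0 to T6, NRAS had the lowest value in parental cells, -2.74 (edgeR on summed counts, unadjusted p = 0.0266, adjusted p = 0.323; rank aggregation, unadjusted p = 0.0246, adjusted p = 0.982). In NMYC cells MAP2K2 was lowest at -2.57 (adjusted p = 0.699 and 0.984). Rank aggregation called 0 of 7 lower and 0 higher in each arm (all genes: 0%), with 1 lower at an unadjusted p under 0.05 in parental (5.01%) and 0 in NMYC cells (5.13%), and 0 higher in each (4.89% and 4.97%). Of the sgRNAs, 0 of 20 in parental (all sgRNAs: 9.26%) and 1 of 20 in NMYC cells (3.7%), HGLibB_02619 against ARAF, had an unadjusted edgeR p under 0.05. In both T6 libraries 4 of the 7 genes were lower than at T0 in parental cells (all genes: 44.9%) and 1, ARAF, was higher (29.4%), and in NMYC cells 6 were lower (48.4%) and 1, NRAS, was higher (30.1%). From T6 to T12 MAP2K2 was lowest in both arms, at -1.85 in parental cells (edgeR on summed counts, adjusted p = 0.851; 0.63 without parental T6 replicate 2) and -2.94 in NMYC cells (adjusted p = 0.993; unadjusted p = 0.0332). In NMYC cells it was the 1 of 7 under an unadjusted p of 0.05 on summed counts (all genes: 2.83%). The same held by rank aggregation on the lower side (4.97%), with 0 on the higher side (4.7%). In parental cells 0 of 7 were under 0.05 on summed counts (5.99%) or by rank aggregation (4.91% lower and 4.89% higher). NRAS had the highest value in parental cells, 1.58 (adjusted p = 0.85; -1.74 without parental T12 replicate 1), and MAPK3 in NMYC cells, 1.41 (adjusted p = 0.993). Both NMYC T12 libraries were below both NMYC T6 ones for 2 of the 7 genes, NRAS and MAP2K2 (all genes: 12.2%). They were above them for 2, BRAF and MAPK3 (24.4%). In parental cells 0 were lower (10.8%) and 1, MAP2K1, was higher (20.7%). The HRAS sgRNA HGLibB_22043 had 190 and 592 counts at parental T6 and 7 and 116 at T12 (log2 value -3.70; edgeR unadjusted p = 0.0149, adjusted p = 0.689). It was the 1 of 20 in parental cells with an unadjusted edgeR p under 0.05 (all sgRNAs: 6.44%). In NMYC cells the 1 of 20 (4.41%) was HGLibB_28099 against MAP2K1, at a log2 value of -5.75 (edgeR unadjusted p = 0.019). These comparisons share T0 or T6 libraries with those above and are not independent of them.

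Ordered by mean level over the 6 groups, the genes did not all have the same highest and lowest group. NMYC T0 was highest for HRAS, ARAF and MAP2K2, parental T0 for NRAS and BRAF, parental T12 for MAP2K1 and NMYC T12 for MAPK3. Parental T0 was lowest for HRAS and ARAF, parental T6 for NRAS and MAP2K1, NMYC T6 for BRAF and MAPK3 and NMYC T12 for MAP2K2. Each T0 group is 1 library. The highest mean was 42.4 times the lowest for MAP2K2 and between 2.65 and 7.78 times for the other 6. Of the 5 neighbouring steps in this order, 5 were within the larger SD of the neighbours for ARAF, 4 for HRAS, BRAF and MAPK3, 3 for MAP2K1 and MAP2K2 and 2 for NRAS. For MAP2K2 the step from NMYC T0 (156 CPM) to parental T6 (60.2 ± 73.0) exceeded that SD, as did the step from parental T12 (18.5 ± 11.5) to NMYC T12 (3.68 ± 2.55).

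The sgRNAs of a gene resembled each other little across the 10 libraries, as a description of libraries that share scaling and cultures. The mean pairwise Pearson r of log2(CPM + 1) was 0.32 for NRAS, 0.15 for BRAF, 0.11 for MAPK3, 0.08 for ARAF, -0.24 for MAP2K2, -0.27 for HRAS and -0.32 for MAP2K1. Over the 15248 genes with 3 kept sgRNAs the median was -0.01, with 5th and 95th percentiles of -0.30 and 0.37, and only MAP2K1 lay outside them. The MAP2K2 value is that of a single pair, so these percentiles are not a like measure for it. Between the genes, the summed levels had a median r of 0.09 over 21 pairs, from -0.73 (NRAS with ARAF) to 0.68 (HRAS with MAP2K2), and 10 pairs were below 0.

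Genes whose summed levels were most like those of each member over the 10 libraries were picked from 15242 by the highest Pearson r of log2(CPM + 1). They were GLUD2 (0.894) and NAA60 (0.89) for HRAS, EEF2 (0.973) and CHPF2 (0.954) for NRAS, and CIDEB (0.93) and BCAS4 (0.923) for ARAF. For BRAF they were BTG1 (0.953) and C11orf73 (0.946), for MAP2K1 FBXL2 (0.945) and the receptor gene FGFR2 (0.937), for MAP2K2 CSMD1 (0.939) and VAT1 (0.93), and for MAPK3 RAB11FIP4 (0.938) and SAV1 (0.936). High values are found by choice among so many genes and 10 libraries, and no other meaning is drawn from them.

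Other genes of the pathway, in 7 lists, gave no call either. By rank aggregation 0 genes of each list passed in each direction in the parental, NMYC and difference contrasts from T0 to T12, and 0 of all 18197 genes did, with 931, 915 and 870 lower and 883, 924 and 882 higher at an unadjusted p under 0.05. Receptors and adaptors upstream of RAS (35 genes) had a median log2 value of 0.30 in parental and -0.53 in NMYC cells, with 14 and 22 genes below the median gene. Relatives of RAS (18 genes) had 0.36 and -0.28, and genes of RAS processing and traffic (12 genes) 0.43 and 0.66. Scaffolds and RAF regulators (27 genes) had -0.19 and 0.10, and RAS GAPs, sprouty, spred and ERK phosphatases (25 genes) -0.23 and -0.04. ERK targets and effectors (33 genes) had 0.23 and 0.22, and other MAP kinase cascades (28 genes) 0.01 and -0.31. The 7 genes of the cascade itself had -0.14 and -0.86, and all genes had 0 by construction. In the difference of the arms the list medians ran from -0.75 for receptors and adaptors to 0.36 for RAS processing, with the cascade itself at -0.86.

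**Figure D5:**
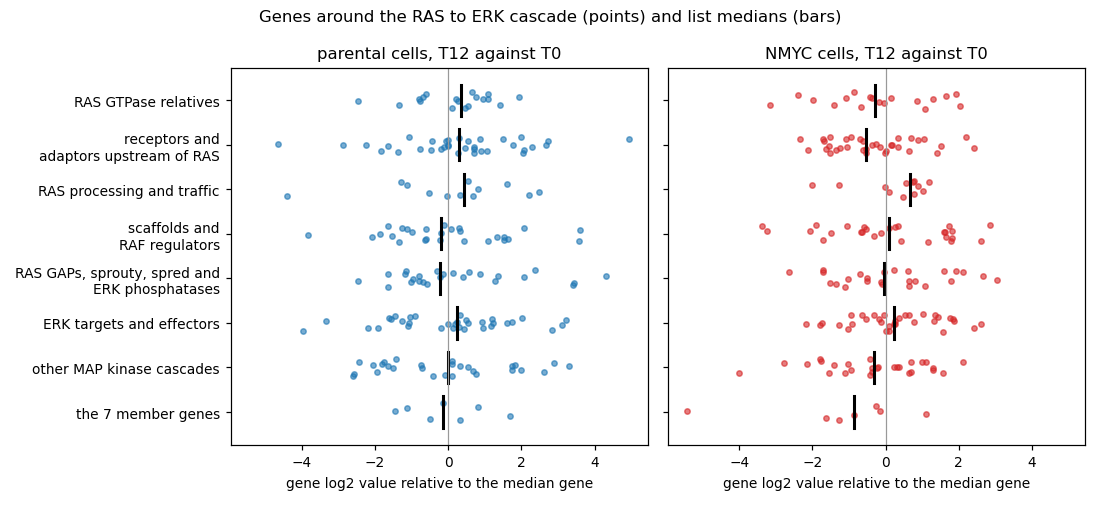
Gene log2 values from T0 to T12, relative to the median gene, for 7 lists of genes around the cascade and for the 7 cascade genes (points), in parental (left) and NMYC (right) cells, with list medians as black bars. List medians lie between -0.53 and 0.66, the cascade genes have -0.14 and -0.86, and the lowest cascade gene in the NMYC panel is MAP2K2 at -5.43.

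The member of each list with the smallest rank aggregation p in each direction is named here. None passed after adjustment (adjusted p of at least 0.937), and other members of a list can have larger log2 values. In parental cells those on the lower side were SHC3 (an adaptor, log2 value -4.66), ICMT (which methylates processed RAS, -4.41), LAMTOR2 (-3.84), ELK1 (an ERK target transcription factor, -3.33), MAPK9 (a JNK kinase, -2.58), RHEB (-2.47) and DUSP4 (an ERK phosphatase, -1.66). Those on the higher side were RASAL3 (4.3), MAPK4 (2.61), PGGT1B (2.49), the RAS exchange factor SOS1 (2.29), HSP90AA1 (1.63), ETV4 (1.61) and RAP1B (0.55). In NMYC cells they were YWHAE (a protein of the RAF-binding 14-3-3 family, -3.25), ZDHHC9 (-2.01), ELK4 (-1.80), KIT (-1.52), MAP3K3 (-1.02), PPP2CA (-0.71) and RHEB (-0.38) on the lower side. On the higher side were RASAL3 (3.04), RAP1A (2.03), ELK1 (1.86), PPP1CB (1.63), MAPKAPK5 (1.56), SOS1 (1.51) and RCE1 (0.56). In the difference of the arms those on the lower side were RASA1 (-3.97), YWHAE (-3.57), MAPK12 (-2.12), LYPLA2 (-1.97), EGR1 (-1.70), GAB1 (-1.40) and RASD2 (-0.84), and those on the higher side ELK1 (5.31), MAP3K4 (4.83), ICMT (4.51), SHC3 (4.39), RASAL2 (4.34), PPP1CB (3) and RAP1A (2.94).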

How the data were processed

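The deposited table holds the authors' read counts for every sgRNA in each library, not normalized, and each of its 10 columns carries a library's title (0 unmapped). MAGeCK is named, without a version, in the submitters' processing notes. How reads were trimmed and matched to sgRNAs was not stated in the labels. sgRNAs with a mean count of at least 20 were kept (53040 of 55849), and genes with at least 2 kept sgRNAs (18197) were tested. Each sgRNA, and each gene's summed counts, was fitted with edgeR 4.0.16 in R 4.3.3 (TMM, quasi-likelihood, a mean per group, all 10 libraries, 4 residual degrees of freedom, common dispersion 1.11). The spread of the unreplicated T0 libraries was taken from the groups with 2 cultures. Rank aggregation used one-sided sgRNA p-values up to 0.25 with an exact null per number of sgRNAs. Adjustment was by Benjamini-Hochberg over all sgRNAs or genes, threshold 0.05. The scripts were tested on simulated data. DESeq2 1.42.0 was an alternative. Standard errors come from the fold change and its F statistic.

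The 7 genes and the lists were chosen with earlier results of these data known. Named genes were all members, in each list the smallest p per direction with 3 kept sgRNAs, and the 2 most similar genes per member. Other family members are not reported here, and sgRNA sequences were not used here. Cultures of an arm were carried from T6 to T12 per the labels' protocols, which pairs their numbers; replicate differences at T6 and T12 correlated at 0.065 in parental and -0.009 in NMYC cells over sgRNAs.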

Additional observations from a re-analysis of the deposited data

How the results depend on the processing

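Counts of called members stayed at 0 for genes by rank aggregation in all 9 contrasts under every alternative run. In the main fit it called 0% of all 18197 genes as well, so a 0 does not set the members apart in any of these contrasts. On summed counts edgeR called none of the 7 in any of them, and DESeq2 called 1, MAP2K2 in NMYC T12 against T0 (adjusted p = 0.0152; range over its alternatives 0.0152 to 0.693), among 228 genes in all (1.25%). For sgRNAs of the members, DESeq2 gave 2 in parental T12 against T0 (all sgRNAs: 11.6%) and 1 each in the difference of the arms (6.78%), in parental T12 against T6 (2.48%), in NMYC T12 against T6 (0.852%) and in NMYC against parental at T12 (8.38%), and the NMYC libraries alone gave 1 in T12 against T0 (0.545%). The replicate block gave 0 members in each contrast. Over all sgRNAs, the 12 calls in parental and 7 in NMYC cells (T12 against T0) became 5894 and 1530 with DESeq2, 5 and 0 with the replicate block, 1 and 0 with factors from non-targeting sgRNAs, and 0 and 0 when each T0 library had to hold 30 counts or more. The parental count was 1 in the parental libraries alone and 6 against the mean of both T0 libraries, chosen after seeing the data; the NMYC count was 289 in the NMYC libraries alone, 1 against that mean and 0 with median-of-ratios factors. Leaving out 1 library took the parental calls to 0 without either parental T12 or either NMYC T6 library. It gave 0 to 79 NMYC calls, with 77 and 79 without parental T12 replicate 1 and 2, 3 without parental T6 replicate 2 and 0 when an NMYC T6 or T12 library was the one left out. In the difference of the arms 0 became 3459 with DESeq2, and 9 and 6 without parental T12 replicate 1 and 2. Why the tools differ was not tested. Of 63 log2 values of member genes, 33 kept their sign in every setting run, and 6 of the 21 from T0 to T12 did not: HRAS, MAP2K2 and MAPK3 in parental cells, ARAF and MAP2K1 in NMYC cells, and NRAS in the difference. Libraries had median counts of 50 to 187 per sgRNA. T12 replicates differed by a median of 1.58 (parental) and 1.47 (NMYC) log2 units over all kept sgRNAs. The part of this depth and spread in the number of calls was not tested.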
